A study of Mus musculus with 2 samples.

Results

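The genes described here are the mouse glycosyltransferases that carry one of 11 symbol prefixes: Galnt, Gcnt, Mgat, Fut, B3galt, B3gnt, B4galt, B4galnt, St3gal, St6gal and St8sia. The rule was the prefix alone and used no measured value, but it was set with earlier results of these data known. They number 89 of the 38924 genes in the deposited quantification. Of these 87 are coding, and the others are the antisense genes Galnt6os and St8sia3os. RNA came from islets, the hormone-secreting part of the pancreas, of male C57BL/6J (B6) mice, the strain of the reference genome, and of male CAST/EiJ (CAST) mice, a wild-derived inbred strain. All mice were 10 weeks old and ate standard chow, and the labels name no treatment. For each strain the islets of 2 mice were pooled, and 250 islets of the pool gave 1 RNA library. Islets of both strains were freed with collagenase, picked by hand and kept in buffer with 16.7 mM glucose. The title of the series names a search for modified proteins, and the islets left over went to protein analysis.

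Glycosyltransferases sit mainly in the membrane of the Golgi and add one sugar at a time to a growing chain on a protein or lipid. N-glycans are trimmed and then branched by Mgat enzymes, while O-glycans are started by Galnt enzymes and branched by Gcnt enzymes. The B3gnt, B3galt, B4galt and B4galnt enzymes lengthen these chains and build glycolipids, and fucosyltransferases and sialyltransferases add the sugars that cap them. In beta cells, N-glycan branching is known for holding the glucose transporter Glut2 at the cell surface.

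The B6 library held 76600903 expected counts and the CAST library 104324631. With 1 library per strain there is no replicate error, no test between strains and no p-value. Every ratio compares these 2 libraries, is given as log2 of CAST over B6 after scaling, and has a 95% interval (exact Clopper-Pearson, from the part of a gene's counts found in CAST) that covers counting error only. The islet label was met by hormone markers: 8 beta-cell markers summed to 488768 TPM (a relative transcript level that takes account of length) in B6 and 556600 in CAST. Markers of other cells differed between the pools. All 16 acinar markers, genes of the enzyme-secreting cells around islets, were higher in CAST by the scaled ratio (15 by TPM), 13 of them at least 2-fold, and summed to 6552 TPM in B6 and 20500 in CAST. The 5 alpha-cell markers summed to 65919 TPM in B6 and 39333 in CAST. Delta and PP markers summed to 15410 TPM in B6 and 11367 in CAST. Among these, Ppy (0.64) and Pyy (0.04) had scaled ratios above 0, and Sst (-0.90) and Hhex (-0.79) below. Duct markers summed to 342 TPM in B6 and 248 in CAST, but Krt19 (3.52), Muc1 (1.35) and Spp1 (1.12) were at least 2-fold higher in CAST. Of the 8 duct markers with 100 or more counts, 4 ratios were above 0 and 4 below. Endothelial markers summed to 227 and 204 TPM, with a scaled ratio of summed counts of 0.23, and leukocyte markers to 30.2 and 19.4. Fibroblast and pericyte markers were higher in CAST for 9 of 10 genes by the scaled ratio and 7 by TPM (sums of 63.9 and 79.3 TPM). In this list Pdgfrb (0.04), Cspg4 (0.01) and Rgs5 (-0.04) were near level by the ratio. Schwann and neural markers were higher in CAST for 5 of 6 genes by the ratio and 4 by TPM (27.2 and 45.3 TPM). Without Ncam1 the other 5 Schwann and neural markers summed to 11.7 TPM in B6 and 9.41 in CAST, the opposite direction. No marker was at 0 in either library. Their part in the results was not tested, and in bulk RNA fewer cells of a type and less RNA per cell cannot be told apart.

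Glycosyltransferase RNA was spread over many genes at modest levels. The 89 genes held 0.178% of counts in B6 (interval 0.177 to 0.178) and 0.165% in CAST (0.164 to 0.166), and their TPM summed to 672 and 543. After scaling, the log2 ratio of their summed counts was 0.05 (0.04 to 0.06), the other direction. A level of 1 TPM or more, the limit used for detection, was reached by 55 genes in each library and by 53 in both. The 3 highest genes held 19.2% of the summed TPM in B6 and 17.4% in CAST, and the 10 highest held 46.1% in each. B4galt3, Galnt18, Galnt1 and Galnt2 were among the 5 highest genes in both libraries. The order of levels was alike, with a Spearman correlation of TPM between the libraries of 0.943 across 67 members with 100 or more counts, beside 0.927 across 14768 genes of all kinds. Both values describe these 2 libraries, and genes are not independent replicates.

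**Figure D1:**
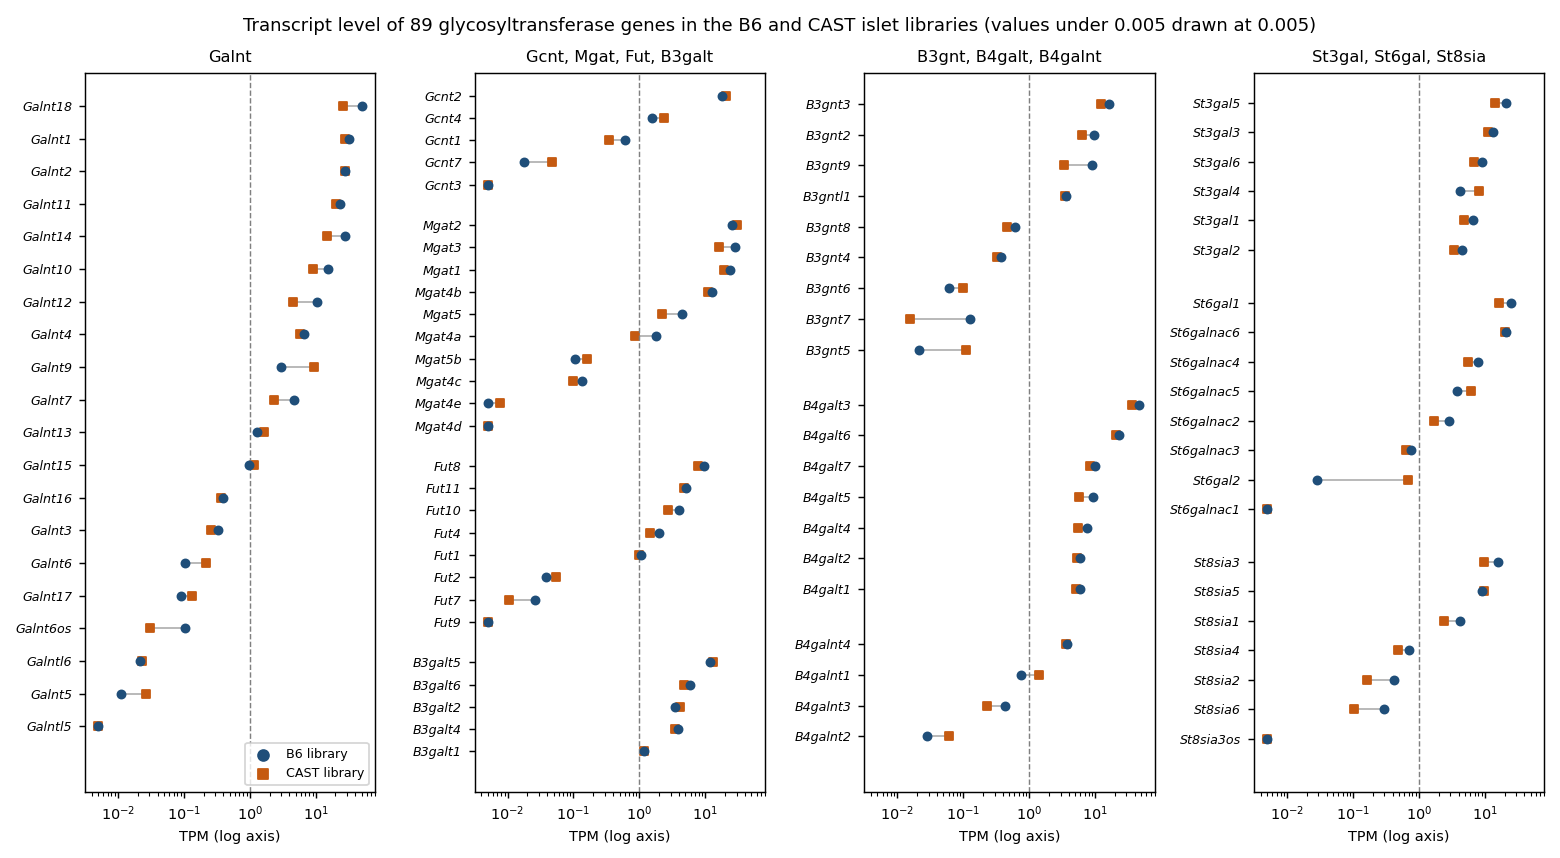
Level of all 89 genes in TPM on a log axis, 1 circle for the B6 library and 1 square for the CAST library per gene, grouped by prefix; the dashed line is the detection limit of 1 TPM and values under 0.005 are drawn at 0.005. Most pairs of points lie close together, while St6gal2 lies at 0.0284 TPM in B6 and 0.692 in CAST.

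Most members differed little between the libraries. A ratio under 2-fold was found for 59 (88.1%) of the 67 with 100 or more counts in all, beside 86.8% of all 14768 genes with as many counts. All 67 are coding, and among the 13530 coding genes with as many counts the share was 89.5%. The members' median log2 ratio was 0.03 and that of all genes 0.02, and the median size of the ratio was 0.32 and 0.29 (0.27 for coding genes). At least 2-fold higher in CAST were 6 of the 67 members, beside 7.18% of all genes and 765 of the 13530 coding genes. At least 2-fold higher in B6 were 2 of the 67, beside 5.99% of all genes and 649 of the coding genes. These counts are near the background and say nothing particular about the families. The 6 were St6gal2, Galnt9, Galnt6, St3gal4, B4galnt1 and St6galnac5, and the 2 were St8sia6 and B3gnt9.

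The scaling sets part of this picture. Scaling by total counts moved the median of all genes from 0.02 to -0.14, and TPM moved it to -0.26. Of the members past 2-fold, 6 of 8 (75%) were higher in CAST with the main scaling, 5 of 9 (55.6%) with total counts and 1 of 3 (33.3%) with TPM, where a pseudocount of 1 also shrinks low genes. Over all genes past 2-fold the same shares were 54.5%, 44.2% and 38.6%. Ratios are those of the main scaling (TMM) unless another is named. The sign of the ratio held in all 4 scalings for 46 of the 67 members, including the 8 past 2-fold, and changed for 21. Ratios past 2-fold lie well beyond the shift between scalings, so their sign could hardly change. Since total counts and TPM mostly moved ratios down, a ratio or family median below 0 with TMM could hardly turn above 0 either.

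**Figure D2:**
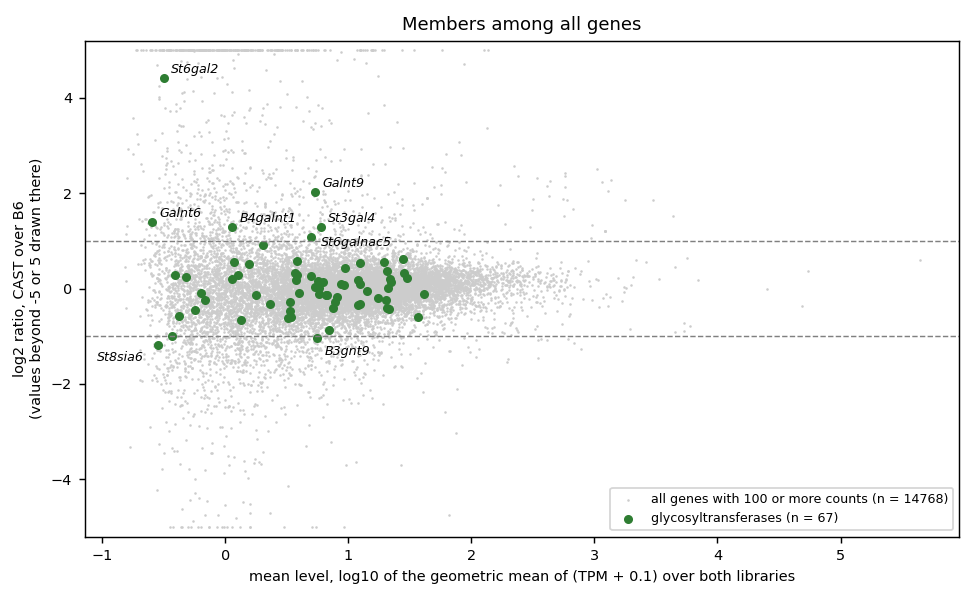
Log2 ratio of CAST over B6 against mean level for all 14768 genes with 100 or more counts (grey) and the 67 members (green); dashed lines mark 2-fold. The members lie within the cloud of all genes, and the 8 labelled ones are past 2-fold.

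Among the N-glycan branching enzymes, Mgat2 was higher in CAST and Mgat3, Mgat5 and Mgat4a were higher in B6, each under 2-fold. Mgat1, which adds the first branch and opens the way to complex N-glycans, was level (4152 counts in B6, 5090 in CAST, ratio 0.00, interval -0.05 to 0.06), and was lower in CAST with total counts (-0.15) and TPM (-0.30). Mgat2, which adds the second branch, had 4159 counts (25.3 TPM) in B6 and 7788 counts (30.6 TPM) in CAST, a ratio of 0.62 (0.56 to 0.67). Mgat2 held 26.4% of the summed TPM of the Mgat genes in B6 and 38.1% in CAST.

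Mgat3, which adds the bisecting residue that stops further branching, took the other course, with 8275 counts (27.9 TPM) in B6 and 7555 counts (16.4 TPM) in CAST. Its ratio was -0.42 (-0.47 to -0.38), and its share of the family was 29.1% in B6 and 20.4% in CAST. Mgat3 was the highest Mgat gene in B6 and Mgat2 in CAST. Of the enzymes that add outer branches, Mgat4b had a ratio of 0.18 (-0.19 with TPM), Mgat5 had a ratio of -0.62 and Mgat4a -0.67 (-0.82 to -0.51). Mgat4a, the enzyme named in work on Glut2, was low in both libraries, with 1.80 TPM in B6 and 0.845 in CAST. The median of the 6 Mgat genes was -0.21 and was below 0 in all 4 scalings, with 3 genes above and 3 below 0 in the main one.

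Mgat4a (ENSMUSG00000026110, chromosome 1, 37439340 to 37541016, minus strand, GRCm38) was also the one member with another main transcript in CAST and a loss of 30 or more percentage points, of 42 members with 100 or more counts in each library that could be compared. Over all genes 1.48% met the same rule. Mgat4a-205 held 57.2% of Mgat4a TPM in B6 and 18.6% in CAST, and Mgat4a-201 held 30.1% and 77.6%. Both encode a coding length of 1605 bases, and all 7030 exonic bases of Mgat4a-201 also lie in Mgat4a-205, which has 221 more at its 5′ end, before the coding part. The division of reads between them therefore rests on reads that touch those 221 bases, and the uncertainty of the RSEM estimate is not given in the deposited files.

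The upstream sequences of the RefSeq starts of Mgat4a are shown because the transcripts whose shares differed between the libraries have different first exons, each as the 250 bases before the start on the minus strand of chromosome 1 (GRCm38.p6). The first start, chr1:37541017-37541266, lies before Mgat4a-205, and the second, chr1:37536405-37536654, lies before Mgat4a-206 and near Mgat4a-201. Capitals mark the GC box GGGCGG, the CCAAT box and the TATA box TATAAA, each searched on both strands.
Mgat4a start 1: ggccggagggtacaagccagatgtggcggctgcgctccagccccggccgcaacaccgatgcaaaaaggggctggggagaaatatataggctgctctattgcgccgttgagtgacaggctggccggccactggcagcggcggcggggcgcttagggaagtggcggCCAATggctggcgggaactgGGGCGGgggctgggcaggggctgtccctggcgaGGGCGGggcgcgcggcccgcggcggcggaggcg
Mgat4a start 2: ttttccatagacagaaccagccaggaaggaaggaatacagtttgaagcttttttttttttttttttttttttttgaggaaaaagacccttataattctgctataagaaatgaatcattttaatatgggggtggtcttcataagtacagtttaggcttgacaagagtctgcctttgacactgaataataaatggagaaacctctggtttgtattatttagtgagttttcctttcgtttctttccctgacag
The first holds 2 GC boxes and 1 CCAAT box in 72.4% G and C, and the second holds none of the 3 motifs in 33.6% G and C. Transcripts at the first start held 57.2% of Mgat4a TPM in B6 and 18.6% in CAST, and those at the second 37.2% and 81.4%. The second start is also the 5′ edge of the second exon of Mgat4a-205, so the bases before it are intron in that transcript.

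Other members kept their main transcript or lost less of it. The main transcript was the same for 38 of the 42 (90.5%), beside 91.9% of 8981 genes. B4galt2, a galactosyltransferase, had another main transcript in CAST with a smaller loss. B4galt2-202, annotated as a target of nonsense-mediated decay, held 50.9% in B6 and 30.7% in CAST, and B4galt2-201 held 42.7% and 60.0%. B4galt2 shares 28.2% of its exonic bases with Ccdc24 on the same strand, so its reads are uncertain. For Mgat1, Mgat1-213 held 38.5% in B6 and 21.6% in CAST, Mgat1-201 21.8% and 36.7%, and Mgat1-203 0.0291% and 18.9%. All 3 have the same coding length of 1341 bases. In the fourth gene, St3gal6, St3gal6-202 held 36.3% in B6 and 23.7% in CAST and St3gal6-201 28.9% and 28.2%, and the gene shares 26.0% of its exonic bases with Dcbld2 on the other strand. Galnt14 kept its main transcript, while Galnt14-202, whose coding length is 1287 bases beside 1650 in Galnt14-201, held 26.5% in B6 and 5.64% in CAST. Gcnt2 and St6gal1, which have several first exons, kept their shares: Gcnt2-203 held 87.4% in B6 and 85.7% in CAST.

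**Figure D3:**
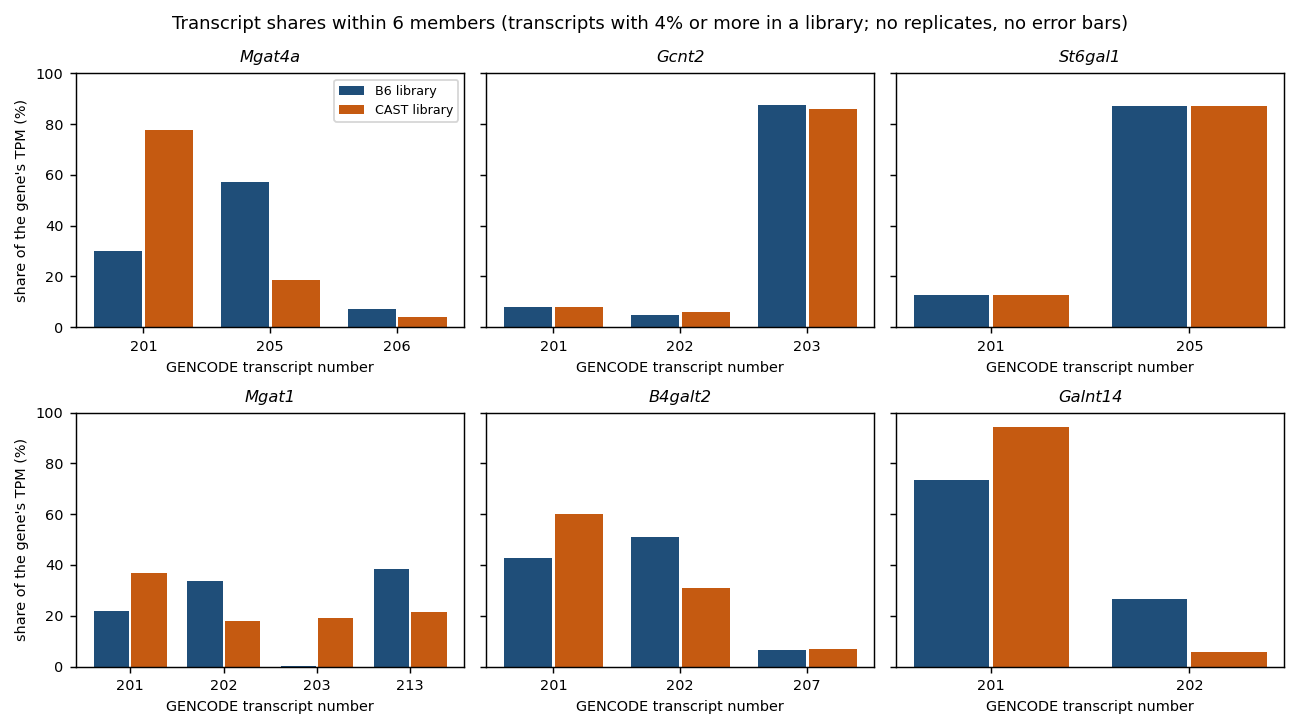
Share of a gene's TPM held by each transcript (percent, from 0 to 100) in the B6 and CAST library for 6 members, numbers being GENCODE transcript numbers. By the RSEM estimate Mgat4a is mainly 205 in B6 and mainly 201 in CAST, whereas Gcnt2 and St6gal1 keep the same proportions.

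The Galnt enzymes start O-glycans by linking N-acetylgalactosamine to serine or threonine, and were the most abundant family, with a summed TPM of 205 in B6 and 153 in CAST. Galnt18 was the highest of them in B6 with 8038 counts (50.7 TPM), and had 6459 counts (26.2 TPM) in CAST, a ratio of -0.60 (-0.65 to -0.56). It held 24.7% of the family's TPM in B6 and 17.1% in CAST. Galnt1 and Galnt2, which many tissues use, had ratios of 0.22 and 0.33 and TPM values of 31.6 and 28.4 in B6 and 28.3 and 28.2 in CAST. Galnt2 has a near-identical copy, Gm20388, with 5 counts in B6 and 345 in CAST, so its value is uncertain, and the signs of both changed with TPM, to -0.15 for Galnt1 and -0.01 for Galnt2.

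Galnt9 (ENSMUSG00000033316, chromosome 5, 110544355 to 110621380, plus strand) had the second largest ratio of the 67 members. It had 535 counts (2.99 TPM) in B6 and 2652 counts (9.35 TPM) in CAST, 4.05-fold higher, a log2 ratio of 2.02 (1.89 to 2.16). It was above 2-fold in all 4 scalings (1.38 with TPM). Galnt9 is best known as a brain enzyme. Galnt6 (ENSMUSG00000037280, chromosome 15, 100691813 to 100729376, minus strand) had only 25 counts in B6 and 81 in CAST, a ratio of 1.39 (0.74 to 2.12) that was 0.14 with TPM, and its level of 0.104 TPM in B6 and 0.217 in CAST was below the detection limit. Its antisense gene Galnt6os had 9 and 4 counts and shares 11.4% of Galnt6's exonic bases. Without a stated strand setting their reads cannot be told apart.

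The lowest Galnt ratio was that of Galnt12, with 1483 counts (10.4 TPM) in B6 and 996 counts (4.49 TPM) in CAST, a ratio of -0.86 (-0.98 to -0.75). It passed 2-fold toward B6 with total counts and with TPM. Galnt7, a follow-up enzyme that prefers peptides already carrying a sugar, had a ratio of -0.59. Over the 15 Galnt genes with 100 or more counts, 10 ratios were above 0 and 5 below. Their median was 0.22, and TPM turned it to -0.15. Galntl5 was listed at 0 in both libraries.

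The Gcnt enzymes branch O-glycans and lactosamine chains, and their main gene in islets was Gcnt2, the I-branching enzyme of lactosamine chains. Gcnt2 (ENSMUSG00000021360, chromosome 13, 40859754 to 40960892, plus strand) had 4936 counts (18.0 TPM) in B6 and 8854 counts (20.8 TPM) in CAST, a ratio of 0.55 (0.50 to 0.60), and held 89.1% of the family's TPM in B6 and 88.4% in CAST. Gcnt4, which branches O-glycan cores, had 508 counts in B6 and 1172 in CAST, a ratio of 0.92 (0.77 to 1.07). Gcnt1, an enzyme of the same reaction, went the other way, with 179 and 160 counts and a ratio of -0.45 (-0.77 to -0.14). Gcnt3, the mucin-type member, was listed at 0 in both libraries. The family median of 0.55 was above 0 in all 4 scalings.

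B4galt3 and B3gnt3 were the highest genes of their chain-extending families. B4galt enzymes add galactose to N-acetylglucosamine or, in B4galt5 and B4galt6, to glucosylceramide at the start of most glycolipids. B4galt3 had 5684 counts (46.5 TPM) in B6 and 6427 counts (35.8 TPM) in CAST, a ratio of -0.11 (-0.16 to -0.06), and it shares 14.5% of its exonic bases with Ppox on the other strand. B4galt6 and B4galt5, enzymes of the same lipid step, differed in sign, at 0.20 and -0.40, although TPM gave B4galt6 -0.14. B4galt7, an enzyme of the linker that carries glycosaminoglycans, had a ratio of 0.07, which turned to -0.09 with total counts and -0.22 with TPM. All 7 B4galt genes lay within 2-fold, with a median of 0.02 that turned to -0.14 with total counts and -0.22 with TPM.

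B3gnt enzymes add N-acetylglucosamine to galactose, and alternate with B4galt enzymes in lactosamine chains. B3gnt3 held 40.7% of the family's TPM in B6 and 46.5% in CAST, and its ratio was -0.04. B3gnt2, the main lactosamine extender, had a ratio of -0.28, but is uncertain, since it shares 58.6% of its exonic bases with the near-identical gene Gm28048 (756 and 1009 counts) on the same strand. B3gnt9 (ENSMUSG00000069920, chromosome 8, 105252638 to 105255153, minus strand) was 2.06-fold higher in B6, with 1312 counts (8.84 TPM) in B6 and 777 counts (3.38 TPM) in CAST, a ratio of -1.04 (-1.17 to -0.92). It shares 16.5% of its exonic bases with D230025D16Rik on the other strand. B3gntl1 had the highest ratio of the family, 0.32, which turned to -0.07 with TPM. The median of the family was -0.10 and stayed below 0 in all 4 scalings.

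B3galt enzymes add galactose in another linkage and include enzymes of glycolipids and of the glycosaminoglycan linker. All 5 had ratios above 0 in the main scaling, from 0.03 for B3galt6 to 0.57 for B3galt2, though B3galt6 turned to -0.12 with total counts and -0.26 with TPM, and B3galt4 to -0.12 with TPM. B3galt5, the highest of them, had 3793 counts (11.6 TPM) in B6 and 6707 counts (13.3 TPM) in CAST, a ratio of 0.53 (0.48 to 0.59). It held 44.7% of the family's TPM in B6 and 49.6% in CAST.

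B4galnt enzymes add N-acetylgalactosamine to gangliosides or to the ends of N-glycans. B4galnt1 (ENSMUSG00000006731, chromosome 10, 127165225 to 127172330, plus strand), the enzyme that opens the complex ganglioside series, had 115 counts (0.742 TPM) in B6 and 343 counts (1.42 TPM) in CAST. It was 2.43-fold higher in CAST, a ratio of 1.28 (0.98 to 1.61) that was under 2-fold with TPM (0.48), and shares 20.7% of its exonic bases with Slc26a10 on the other strand. B4galnt4 was the main gene of the family, with 75.7% of its TPM in B6 and 67.9% in CAST and a ratio of 0.30, which turned to -0.04 with TPM. B4galnt3, which like B4galnt4 puts the residue on N-acetylglucosamine, had 102 and 83 counts and a ratio of -0.58.

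Fut enzymes add fucose. Fut8, which fucosylates the core of N-glycans, had 1796 counts (9.49 TPM) in B6 and 2335 counts (7.79 TPM) in CAST, a ratio of 0.09 that turned to -0.07 with total counts and -0.25 with TPM, and held 43.9% of the family's TPM in B6 and 44.0% in CAST. Fut11 had the highest ratio (0.26, and -0.07 with TPM) and Fut10 the lowest (-0.27). No Fut gene with 100 or more counts was past 2-fold. Fut9 was listed at 0 in both libraries, and Fut2 and Fut7 had 22 and 3 counts over both.

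Of the 6 St3gal sialyltransferases, which cap galactose, St3gal4 stood apart in the main scaling. St3gal5, which makes the first ganglioside, was the highest of them, with 2951 counts (21.0 TPM) in B6 and 3127 counts (14.4 TPM) in CAST, a ratio of -0.21 (-0.28 to -0.13). St3gal4 (ENSMUSG00000032038, chromosome 9, 35046576 to 35119268, minus strand), which sialylates lactosamine ends, had 538 counts (4.26 TPM) in B6 and 1601 counts (8.17 TPM) in CAST. It was 2.43-fold higher in CAST, a ratio of 1.28 (1.14 to 1.43) that was under 2-fold with TPM (0.80), and shares 14.1% of its exonic bases with 4930581F22Rik on the other strand. St3gal3 and St3gal6, which cap the same kind of ends, had ratios of 0.11 (-0.05 with total counts, -0.22 with TPM) and -0.18, and all 5 other St3gal genes lay between -0.21 and 0.11. The family median was -0.09 and below 0 in all 4 scalings.

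St6gal1, the main enzyme that puts sialic acid on N-glycan galactose, had 6593 counts (24.6 TPM) in B6 and 6872 counts (16.5 TPM) in CAST, a ratio of -0.23 (-0.28 to -0.18). Its relative St6gal2 (ENSMUSG00000024172, chromosome 17, 55445382 to 55514581, plus strand) had 11 counts in B6 and 298 in CAST, 21.3-fold higher in CAST, the largest ratio of all 67 members at 4.42 (3.61 to 5.49), and under 2-fold with TPM plus 1 (0.72). St6gal2 stayed below the detection limit in both libraries, at 0.0284 TPM in B6 and 0.692 in CAST, and so far below St6gal1 in each. The sequence before the RefSeq start of St6gal2, chr17:55445132-55445381 on the plus strand, is shown beside that of the first start of Galnt9, chr5:110544105-110544354 on the plus strand, as the 2 members with the largest ratios and capitals marking the same motifs.
St6gal2 start 1: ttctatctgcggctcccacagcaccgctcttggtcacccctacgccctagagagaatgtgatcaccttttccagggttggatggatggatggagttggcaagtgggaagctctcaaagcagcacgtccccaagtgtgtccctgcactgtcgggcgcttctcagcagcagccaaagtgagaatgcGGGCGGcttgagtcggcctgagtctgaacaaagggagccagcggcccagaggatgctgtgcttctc
Galnt9 start 1: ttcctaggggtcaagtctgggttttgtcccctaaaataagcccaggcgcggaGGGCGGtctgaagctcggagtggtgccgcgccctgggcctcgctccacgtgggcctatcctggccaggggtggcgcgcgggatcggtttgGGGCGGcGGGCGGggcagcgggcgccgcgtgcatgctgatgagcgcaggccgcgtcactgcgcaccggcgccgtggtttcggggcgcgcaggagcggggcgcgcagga
St6gal2 holds 1 GC box in 58.4% G and C, and Galnt9 holds 3 in 72.4%, and neither holds a CCAAT or TATA box. Transcripts at the first start of Galnt9 held 96.0% of its TPM in B6 and 100% in CAST.

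The St6galnac enzymes put sialic acid on N-acetylgalactosamine of O-glycans and gangliosides. St6galnac6 and St6galnac4 were the highest, at 20.7 and 7.79 TPM in B6 and 20.2 and 5.58 TPM in CAST. Their ratios were 0.38, which turned to -0.03 with TPM, and -0.14. St6galnac5 (ENSMUSG00000039037, chromosome 3, 152817081 to 152982246, minus strand), a ganglioside enzyme, had 1222 counts (3.76 TPM) in B6 and 3162 counts (6.21 TPM) in CAST, a ratio of 1.08 (0.99 to 1.18), which was under 2-fold with total counts (0.93) and TPM (0.60). St6galnac2 had the lowest ratio, -0.32. St6galnac1 was listed at 0 in both libraries. The median of the St6gal prefix was 0.12, and turned to -0.04 with total counts and -0.23 with TPM.

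St8sia enzymes join sialic acids to one another. St8sia3 and St8sia5 differed in direction: St8sia3 had 3374 counts (15.9 TPM) in B6 and 3302 (9.62 TPM) in CAST, a ratio of -0.32 (-0.39 to -0.25), and St8sia5 1095 (9.14 TPM) and 1797 (9.62 TPM), a ratio of 0.43 (0.32 to 0.54). St8sia3 held 51.7% of the family's TPM in B6 and 42.9% in CAST, and St8sia5 29.7% and 42.9%. St8sia1, which makes disialo gangliosides, had a ratio of -0.47. St8sia2 and St8sia4 make polysialic acid, whose main carrier is the adhesion protein of Ncam1. St8sia2 (144 counts in B6, 88 in CAST) was 1.99-fold higher in B6, just under the threshold, with an interval of -1.40 to -0.61. It was past 2-fold with total counts (-1.15) and far under it with TPM plus 1 (-0.29). Its level of 0.420 TPM in B6 and 0.165 in CAST was below the detection limit. St8sia4 had a ratio of -0.24, while Ncam1, among the Schwann and neural markers, had 3066 counts in B6 and 11012 in CAST. St8sia6 (ENSMUSG00000003418, chromosome 2, 13651021 to 13794064, minus strand) had 141 and 76 counts, a ratio of -1.17 (-1.60 to -0.77), at 0.299 TPM in B6 and 0.104 in CAST, and under 2-fold with TPM plus 1 (-0.23). The median of the 6 genes was -0.40 and below 0 in all 4 scalings, but with TPM it was -0.26, as was that of all genes.

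**Figure D4:**
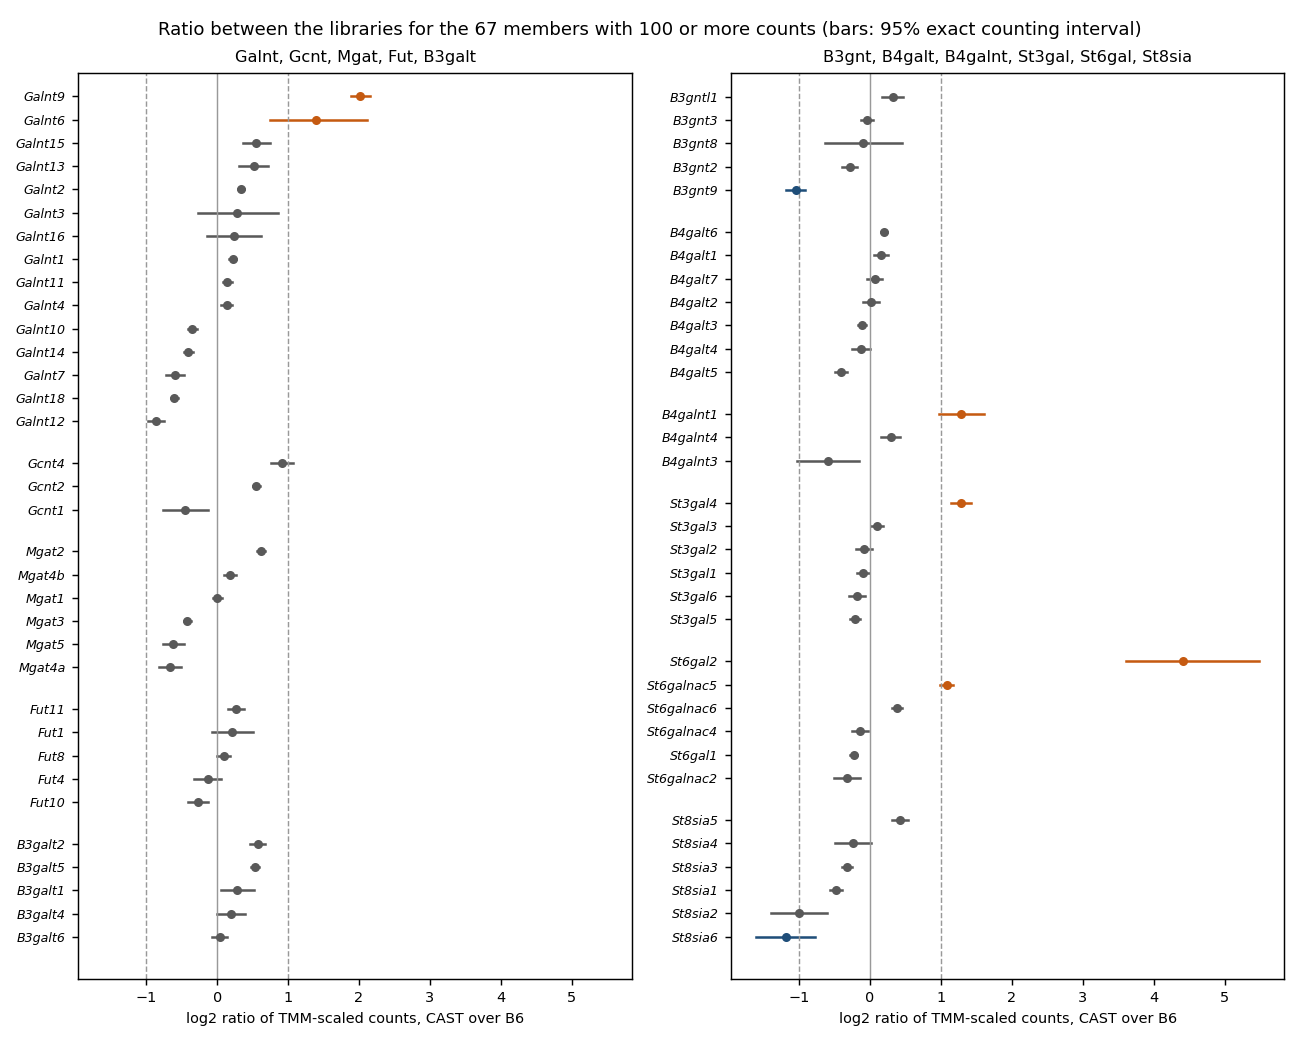
Log2 ratio of TMM-scaled counts, CAST over B6, of the 67 members with 100 or more counts, with points for ratios, bars for 95% exact counting intervals and dashed lines at 2-fold. Orange genes are at least 2-fold higher in CAST and blue genes at least 2-fold higher in B6; St6gal2 at 4.42 and Galnt9 at 2.02 lie farthest out.

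Summed over whole families, the libraries differed most in the Gcnt and B3galt genes in the main scaling, but not with TPM. The summed counts had a ratio of 0.57 (0.52 to 0.62) for Gcnt, 0.44 (0.39 to 0.48) for B3galt and 0.40 (0.28 to 0.52) for B4galnt, and of -0.25 (-0.29 to -0.20) for St8sia and -0.23 (-0.28 to -0.18) for B3gnt. The sums of Galnt, Mgat, B4galt and St3gal lay between -0.01 and 0.03, that of Fut was at 0.06 and that of St6gal at 0.14 (0.10 to 0.17). As ratios of summed TPM, a scaling added after the values were seen, Gcnt had 0.22, B3galt 0.04 and B4galnt 0.11, and the most different sums were those of B3gnt (-0.58), St8sia (-0.46) and Galnt (-0.42). With TPM the sums of all 8 families other than these first 3 were below 0.

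**Figure D5:**
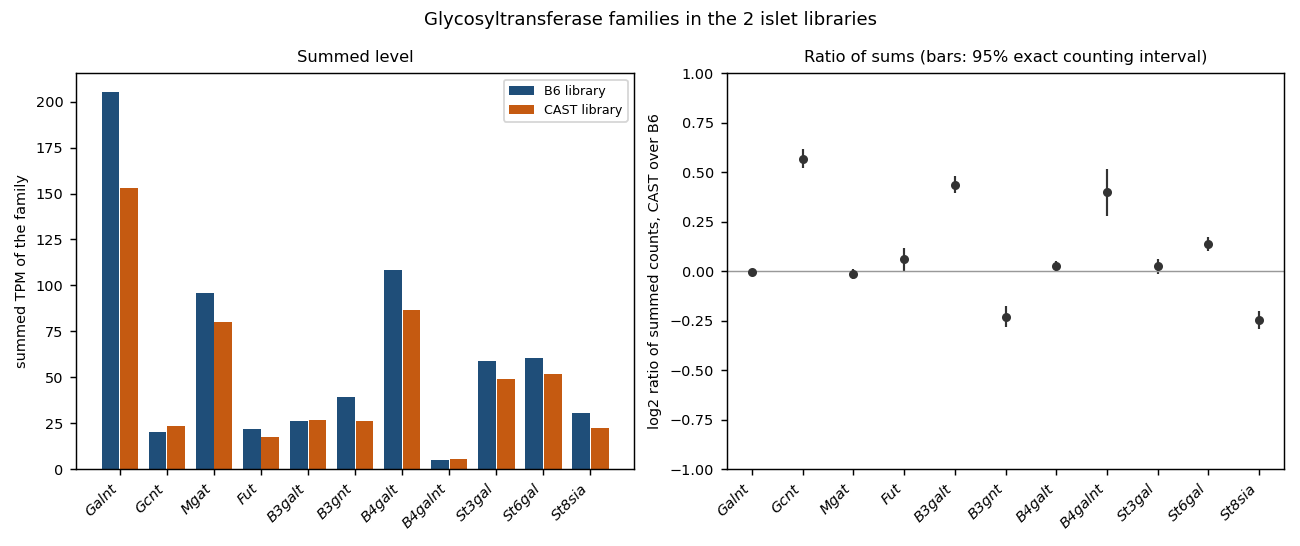
Left, summed TPM of each family in the B6 and CAST library (bars from 0); right, log2 ratio of the summed counts with 95% exact counting intervals. Galnt genes have the highest sums, 205 TPM in B6 and 153 in CAST, and Gcnt has the highest ratio, 0.57.

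In the set of RefSeq promoters used here, 66 of the 89 members had a promoter, Mgat4a, St6gal2 and Galnt9 included. The other 23 had no match by symbol in this set. At least 1 GC box lay in the 250 bases before a start for 66.7% of these members, beside 45.9% of all 18173 genes with a symbol match. Among genes detected in both libraries the shares were 70.3% of 37 members and 65.4% of 9253 genes, and among the others 62.1% of 29 members and 25.7% of 8920 genes. The TATA box was found for 4.55% of members and 12.9% of genes, and the CCAAT box for 37.9% and 38.9%. Of all 32851 promoters in the set, 32.7% held a GC box, 33.8% a CCAAT box and 12.4% a TATA box. These are letter matches and not shown to be sites.

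Genes that make and carry the sugar donors lay mostly within 2-fold, as did 86.8% of all genes and 89.5% of coding genes. Ratios above 0 here depend on the scaling, since the summed TPM of each list was lower in CAST. The sums in B6 and CAST were 96.9 and 86.1 for sialic acid, 75.2 and 57.4 for GDP-fucose, 319 and 274 for UDP-sugar and 125 and 124 for transporter genes. Sialic acid genes (6 with 100 or more counts, median 0.17) ranged from Gne, the first enzyme of the route, at -0.53 to Renbp at 0.61, and none was past 2-fold. GDP-fucose genes (5, median 0.01) ranged from Fpgt at -0.60 to Gmds at 0.20, though Gmds had 23.8 TPM in B6 and 21.5 in CAST. UDP-sugar genes (14, median 0.20) held 1 gene past 2-fold, the galactokinase Galk1, with 47 counts in B6 and 130 in CAST, a ratio of 1.17, and the lowest was Galt at -0.17. The Golgi sugar transporters (8, median 0.01) ranged from Slc35d2 at -0.78 to Slc35b4, a transporter of UDP-xylose and UDP-N-acetylglucosamine, at 0.93 with 6207 counts in B6 and 14440 in CAST.

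The enzymes before and after the glycosyltransferases held a few larger ratios. The 12 genes of the oligosaccharyltransferase, which attaches the N-glycan precursor, had a median of 0.07, from Tusc3 at -0.13 to Dad1 at 0.48. Of the 12 genes of N-glycan trimming (median -0.09) Man2a1, a mannosidase that acts between Mgat1 and Mgat2, was 2.43-fold higher in B6. It had 4488 counts (10.0 TPM) in B6 and 2257 (3.25 TPM) in CAST, a ratio of -1.28 (-1.35 to -1.21). Its relative Man2a2 had 6907 counts (16.5 TPM) in B6 and 8037 (12.4 TPM) in CAST, a ratio of -0.07 (-0.12 to -0.02). The highest of that list was Prkcsh at 0.32, though it had 63.5 TPM in B6 and 62.5 in CAST. Of 20 genes that start or extend other glycan types (median -0.03) Mfng, which elongates O-fucose on Notch, had 420 counts in B6 and 3927 in CAST, a ratio of 2.93 (2.79 to 3.08), and B3galnt1 was lower in CAST at -1.14. Of 17 glycosidases (median -0.02) the sialidase Neu2 had 133 and 46 counts, a ratio of -1.81, and Neu3 was highest at 0.65. Of 6 galectins, which bind galactose-bearing glycans, and the galectin-binding Lgals3bp (median -0.04 over the 7), Lgals4 had 1004 and 493 counts, a ratio of -1.31, and Lgals1 was highest at 0.59.

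The other 22 members had under 100 counts over both libraries. They were 6 listed at 0 in both (Galntl5, Gcnt3, Mgat4d, Fut9, St6galnac1 and St8sia3os), and 16 with 1 to 95 counts. Among the 16, B3gnt5, which starts the lacto glycolipids, had 5 and 28 counts in B6 and CAST, and B3gnt7, a keratan sulfate enzyme, had 21 and 4. B3gnt4 (32 and 44 counts) is uncertain, since 93.2% of its exonic bases lie opposite Diablo. The rest were Mgat4e, Galntl6, Gcnt7, B4galnt2, Galnt6os, Galnt5, Mgat4c, B3gnt6, Mgat5b, Galnt17 and St6galnac3, with Fut2 and Fut7 as given. A count of 0 allows up to 3 counts per library.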

How the data were processed

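RNA-seq of 1 islet library per strain was analysed. The authors' deposited files give, per transcript, an expected count. RSEM and GRCm38 are named per the submitters' processing notes; RSEM splits reads shared by several transcripts. The second deposited value was read as the authors' fraction of all transcripts, since it sums to 1 per library and the ratio of count to this value ranked transcripts by length (Spearman 0.971 in each library). It was rescaled to TPM. Not given in the sources used here are the aligner, versions, annotation release, kit and strand setting. So reads of genes that overlap, on either strand, cannot be told apart. Both strains were quantified on the reference build, so CAST reads carry variants against it.

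Expected counts of 94545 transcripts were summed per gene and rounded. Of 38924 gene IDs 37607 matched a symbol in GENCODE M21 (GRCm38). Ratios used TMM factors of edgeR 4.0.16 (1.06 for B6, 0.947 for CAST; R 4.3.3) with 0.5 added, and needed 100 or more counts per gene in all. Alternatives were DESeq2 1.42.0 size factors, total counts, TPM plus 1, other count filters, CAST thinned to the B6 total, and leaving out near-identical copies (minimap2 2.31, 95% identity over 200 bases and 50% of the shorter transcript). Other tools were matplotlib 3.10.9, pandas 2.3.3, scipy 1.17.1 and numpy 2.4.6 in Python 3.11.15, and the ratio computation was checked on simulated data. Reads are not independent molecules, so intervals and the floor of 3 counts cover counting error only.

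Named are members past 2-fold, the 3 highest by TPM and the highest and lowest ratio of each family, members with another main transcript, and, of 9 pathway lists, the highest, the lowest and any past 2-fold. The members and lists were chosen with earlier results of these data known. The promoters, motifs, transcripts below the share threshold, neighbours and other genes named were chosen after their values were seen. Promoters are RefSeq's (GRCm38.p6), matched by symbol. Protein data were not analysed here.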

Additional observations from a re-analysis of the deposited data

How the results depend on the processing

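Members at least 2-fold higher in CAST numbered 6, and 1 with TPM and 13 with no count filter. Members at least 2-fold higher in B6 numbered 2, and 4 with total counts and 4 with no filter. Over all genes the count higher in CAST was 1061, 463 with TPM and 3748 with no filter, and the count higher in B6 was 885, 1403 with 20 or more counts and 3102 with no filter. The fewer calls with TPM include low genes whose ratio the pseudocount of 1 shrinks by construction, and no filter adds genes with few counts. The members' median ratio of 0.03 was -0.12 with total counts and -0.22 with TPM, beside -0.14 and -0.26 for all genes. Members with another main transcript numbered 1, and 2 with 20 or more counts in each library (adding Galnt17), 2 with a loss of 20 points (adding B4galt2) and 2 with shares by expected counts (adding Galnt13). Of the 44 named members, 36 moved out of the counting interval of the main ratio with total counts, 40 with TPM and 0 with DESeq2 size factors. Of the 8 members past 2-fold 0 changed sign in the 4 scalings, while 21 of the 67 members did. Because ratios past 2-fold exceed the shift between scalings, the 8 could hardly change sign. Depth limits the members with under 100 counts, and no value has an error between mice. No paired analysis was possible because each strain has 1 library.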

Other observations

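Several members lie side by side in the genome (GRCm38), with 7 pairs of neighbours within 100 kb. St6galnac4 and St6galnac6, which act on O-glycans and gangliosides, lie on the same strand of chromosome 2 with 10 bases between their annotated ends, and had ratios of -0.14 and 0.38 (-0.03 with TPM for St6galnac6). The 2 St6galnac6 transcripts at the start nearest St6galnac4 held 0% of its TPM in both libraries. B4galt2 and St3gal3, 48666 bases apart on chromosome 4, had ratios of 0.02 and 0.11, both below 0 with total counts (-0.14 and -0.05). Galntl5 was listed at 0 in both libraries 1606 bases from Galnt11, which had 8844 counts over both. Fut1 and Fut2, 27531 bases apart on chromosome 7, had 420 and 22 counts.

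The coding structure differed by family. The coding part lay in a single exon for 5 of 5 B3galt, 6 of 9 B3gnt, 4 of 8 Fut, 3 of 5 Gcnt, 3 of 10 Mgat and 1 of 19 Galnt genes, the last being Galnt4, and for 0 genes of the 5 other families. Members were found on 19 chromosomes, with the largest numbers on chromosomes 2 (10 genes), 11 (9 genes) and 8 (8 genes).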
